A study of Homo sapiens with 43 samples.

Results

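The BCL6 corepressor genes are 8 protein-coding genes whose products work with the repressor BCL6: BCOR, NCOR1, TBL1XR1, HDAC3, HDAC4, HDAC7, CTBP1 and CTBP2. They were chosen by name out of 20033 protein-coding genes that RefSeq lists on GRCh38 (hg38), and each was followed through all 33 deposited peak lists of the series. The lists come from chromatin immunoprecipitation with sequencing (ChIP-seq) of 2 established diffuse large B-cell lymphoma lines, SUDHL5 and KARPAS422, treated with CDK-TCIP1 or with its solvent DMSO. CDK-TCIP1 is a small molecule with a CDK9-binding end and a BCL6-binding end, and the question put to the lists was where CDK9 and RNA polymerase II lay after treatment. CDK9 was mapped after 2 h of 30 nM CDK-TCIP1 or 0.1% DMSO using antibody ab239364 or CST2316S in SUDHL5 and CST2316S in KARPAS422, in 2 lists for each of these 6 groups. In SUDHL5, RNA polymerase II carrying phosphate on serine 2 (Ser2P) or on serine 5 (Ser5P) was mapped in 2 lists a group, and Pol II itself with antibody 8WG16 in 3 lists a group, after 2 h and 4 h of 30 nM CDK-TCIP1 and after 4 h of DMSO. The names of the deposited CDK9 DMSO lists give 0 h where the labels give 2 h, so a difference in time in the CDK9 comparisons cannot be told apart from treatment. The 2 h and 4 h polymerase comparisons therefore share their DMSO lists, and the 2 h lists differ from DMSO in time as well.

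As background, BCL6 silences genes of germinal-centre B cells by handing its target sites to corepressor complexes. Its BTB domain binds BCOR, which brings a variant Polycomb complex, and NCOR1, which holds the deacetylase HDAC3 together with the adaptor TBL1XR1. Class IIa deacetylases such as HDAC4 and HDAC7 and the C-terminal binding proteins CTBP1 and CTBP2 are further partners of BCL6, and BCOR and TBL1XR1 are recurrently mutated in B-cell lymphoma.

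All 8 genes lie on the minus strand, so that the start of each gene is its high-coordinate end. The RefSeq promoter table held 21 annotated starts of these genes. The 250 bases before annotated starts are shown for TBL1XR1, BCOR, HDAC7 and CTBP1, 5′ to 3′ on the minus strand of GRCh38, and capitals mark each GGGCGG and each TATAAA on either strand. For each gene the start with a CDK9 peak within 1 kb in the most CDK9 lists was taken. The best-ranked CDK9 summit of HDAC7 lay 6.13 to 7.19 kb inside that start, except in treated CST2316S replicate 1 of SUDHL5 (1.04 kb). That of CTBP1 lay 0.88 to 30.3 kb inside. TBL1XR1 is shown at both annotated starts, at positions 177197482 and 177196478, because the best-ranked CDK9 peak of the gene lay there.

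TBL1XR1 outer start, chr3:177197483-177197732: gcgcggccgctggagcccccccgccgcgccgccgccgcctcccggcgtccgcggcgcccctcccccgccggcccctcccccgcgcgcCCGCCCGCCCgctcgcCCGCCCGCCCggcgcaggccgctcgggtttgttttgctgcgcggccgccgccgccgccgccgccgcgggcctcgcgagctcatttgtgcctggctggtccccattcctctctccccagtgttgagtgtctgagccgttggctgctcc

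TBL1XR1 inner start, chr3:177196479-177196728: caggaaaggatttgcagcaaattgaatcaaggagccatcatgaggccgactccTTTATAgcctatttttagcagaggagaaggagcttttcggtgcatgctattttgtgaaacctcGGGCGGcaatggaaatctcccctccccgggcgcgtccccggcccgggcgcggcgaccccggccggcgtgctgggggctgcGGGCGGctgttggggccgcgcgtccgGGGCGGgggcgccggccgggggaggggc

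BCOR start, chrX:40177278-40177527: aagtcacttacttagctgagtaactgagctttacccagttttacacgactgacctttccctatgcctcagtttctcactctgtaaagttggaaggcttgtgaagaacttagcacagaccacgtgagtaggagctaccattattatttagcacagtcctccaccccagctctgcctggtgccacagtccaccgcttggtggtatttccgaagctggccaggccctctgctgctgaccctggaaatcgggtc

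HDAC7 start, chr12:47819904-47820153: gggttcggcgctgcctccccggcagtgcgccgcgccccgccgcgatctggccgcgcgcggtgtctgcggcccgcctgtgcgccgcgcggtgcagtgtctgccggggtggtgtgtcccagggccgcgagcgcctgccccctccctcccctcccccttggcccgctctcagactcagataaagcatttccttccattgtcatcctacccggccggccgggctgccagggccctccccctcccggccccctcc

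CTBP1 start, chr4:1249131-1249380: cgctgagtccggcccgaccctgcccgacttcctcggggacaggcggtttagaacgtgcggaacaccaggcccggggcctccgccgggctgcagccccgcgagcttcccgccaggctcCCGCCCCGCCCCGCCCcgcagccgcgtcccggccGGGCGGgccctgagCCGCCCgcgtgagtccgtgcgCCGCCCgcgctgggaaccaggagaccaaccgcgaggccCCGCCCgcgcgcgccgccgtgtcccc

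The 5 windows differed in base composition. BCOR was the least rich in G and C at 50.8%, against 66.4% and 81.2% at the inner and outer TBL1XR1 starts, 75.6% at HDAC7 and 80.4% at CTBP1, while the median of all 22198 promoter windows was 62.0%. GGGCGG, the GC box, was found 7 times at CTBP1, 4 times at the outer and 3 times at the inner TBL1XR1 start, overlapping copies included, and not at BCOR or HDAC7. At least 1 copy was present in 9 of the 21 windows of these genes and in 53.7% of all windows. TTCCTNGAA, the core of the BCL6 motif, matched in 0 of the 21 windows and in 1.18% of all windows, and the wider TTCNNNGAA matched in 1 of 21 and in 5.92% of all. TATAAA was in 3 of 21 windows and in 9.01% of all, and CCGGAAG, an ETS-type site, in 2 of 21 and in 10.7% of all. Both strands were searched.

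The lists differed in length. CDK9 lists of treated cells held 9262 to 14554 peaks, against 915 to 7804 peaks in DMSO lists. Ser2P lists held 6519 to 16323 peaks after treatment and 16593 to 28951 after DMSO, Ser5P lists 10816 to 15099 after treatment and 11782 to 17784 after DMSO, and Pol II lists 138 to 4000 after treatment and 710 to 3229 after DMSO. All 6 B cell markers examined had a gene-end peak in at least 1 list of each CDK9 set, of Ser2P and of Ser5P, and 5 of 6 in Pol II. Single lists held 3 to 6 of them for CDK9, 4 to 6 for Ser2P, 5 to 6 for Ser5P and 0 to 5 for Pol II. Of 5 T cell markers, CD3E had a gene-end peak in SUDHL5, and CD3D, CD3E and CD3G had one in KARPAS422. Myeloid markers had none, except for CSF1R in Ser2P.

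A gene-end peak is a peak that overlaps, by at least 1 base, the window of 1 kb either side of either end of the gene. BCOR had such a peak in 31 of the 33 lists, NCOR1 in 24, HDAC4 in 19, HDAC7 in 18, CTBP1 in 8, TBL1XR1 in 3, HDAC3 in 3 and CTBP2 in 0. Counted over the whole span with 1 kb either side, BCOR had peaks in 32 lists, TBL1XR1 in 27, NCOR1 and HDAC7 in 25 each, CTBP1 in 23, HDAC4 in 21, CTBP2 in 6 and HDAC3 in 3. The counts differed most for TBL1XR1 and CTBP1. Both annotated TBL1XR1 starts lie over 4 kb inside its outermost end, and a peak was within 1 kb of the inner one in 26 lists. A peak was within 1 kb of the innermost of the 3 CTBP1 starts in 23 lists, and of the outermost in 7.

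**Figure D1:**
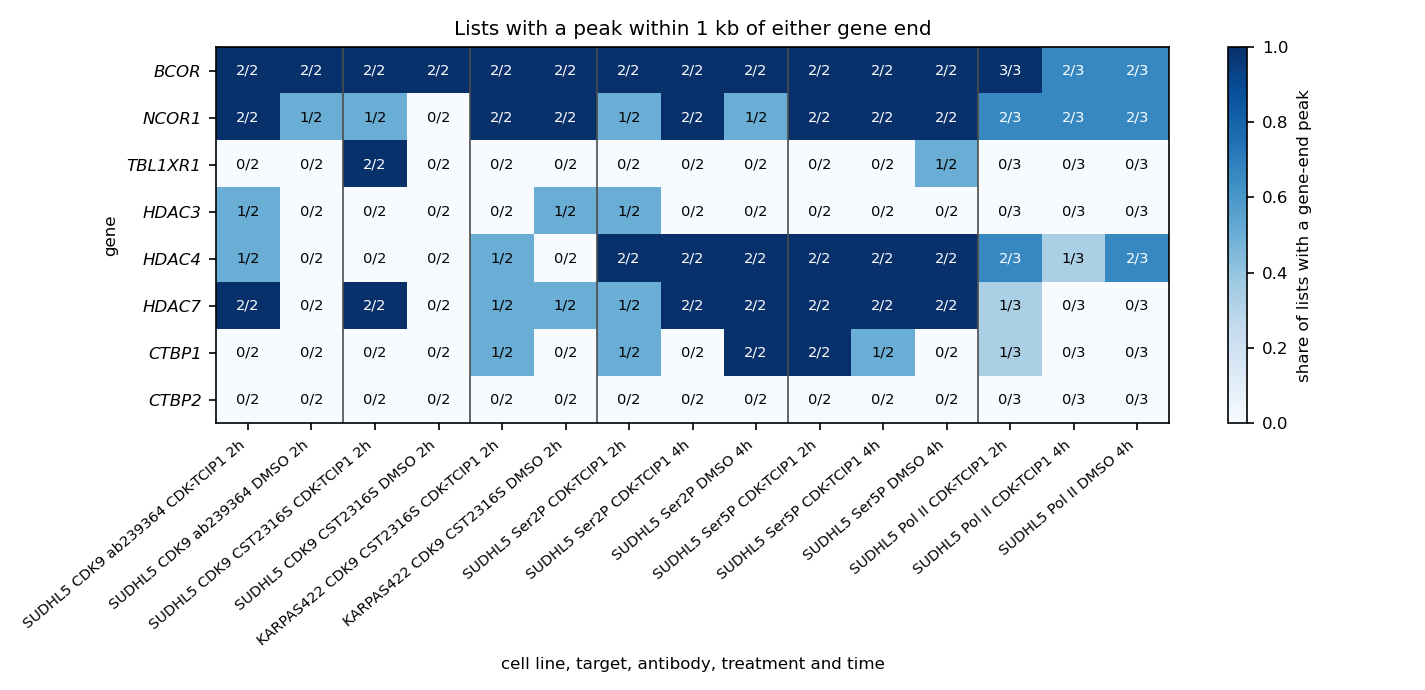
Number of lists with a peak within 1 kb of either end of each gene (rows), out of the lists of each group (columns, by cell line, target, antibody, treatment and time); shading gives the share of lists. BCOR had a peak in every list but 2 Pol II lists, CTBP2 in none, and HDAC7 in both treated lists and no DMSO list of both CDK9 antibodies in SUDHL5.

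A gene was called gained if a gene-end peak was present in all treated lists of a comparison and absent from its DMSO lists, and lost in the reverse case. With ab239364 in SUDHL5, 1 of the 8 genes was gained, HDAC7, and 0 were lost, against 14% gained and 0.0185% lost of the 10818 genes with a gene-end peak in at least 1 list. With CST2316S in SUDHL5, TBL1XR1 and HDAC7 were gained and 0 were lost, against 11.7% gained and 0% lost of all genes. In KARPAS422, 0 were gained and 0 lost, against 8.11% and 1.16%. With 8 genes, counts of 0 to 2 give no result about the group beside these shares, and a single gain has no test with 2 lists against 2. The ab239364 count became 3 (HDAC3, HDAC4 and HDAC7) without treated replicate 2 and 2 (NCOR1 and HDAC7) without DMSO replicate 2. In KARPAS422, 1 gene was gained without treated replicate 1 (CTBP1) or without treated replicate 2 (HDAC4), and HDAC3 was lost without DMSO replicate 2.

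The bases under CDK9 peaks in the span of each gene with 1 kb either side, called its cover, were larger in both treated lists than in both DMSO lists for 5 of the 7 genes with any cover with ab239364 (BCOR, NCOR1, TBL1XR1, HDAC7 and CTBP1), for 4 of 5 with CST2316S in SUDHL5 (BCOR, TBL1XR1, HDAC7 and CTBP1) and for 4 of 8 in KARPAS422 (BCOR, NCOR1, HDAC7 and CTBP2). Among all genes with cover the same held for 57%, 67.3% and 36.6% in that order of sets. None of the 8 genes had less cover in both treated lists, against 0.0275%, 0.075% and 6.87% of all genes. BCOR and HDAC7 were separated in this way in all 3 sets, as were 10.8% of the 9556 genes with CDK9 cover.

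Combined over the 3 sets on the log2 scale, with 200 bases added, the mean difference between CDK-TCIP1 and DMSO was 3.14 for HDAC7, 2.32 for BCOR, 1.89 for CTBP1, 1.80 for TBL1XR1, 1.08 for NCOR1, 0.80 for HDAC4, 0.42 for CTBP2 and 0.08 for HDAC3. The exact two-sided permutation test, with labels exchanged within each line and both SUDHL5 antibodies together, has 36 relabellings and cannot give a p below 0.0556. HDAC7, BCOR and NCOR1 reached that smallest p of 0.0556 in the exact test. Of all 9556 genes tested, 18.3% reached it with a higher value after treatment. In the same exact permutation test p was 0.111 for TBL1XR1 and CTBP1, 0.333 for HDAC4 and CTBP2, and 1 for HDAC3. All 8 differences were positive, as were 90.4% of those of all genes. The median of the 8 genes was 1.44 and that of all genes 0.62. Expressed as a share of the covered bases of its own list, the median was 0.35 for the 8 genes and 0.34 for all genes, BCOR stood at -0.03 and TBL1XR1 at -0.62. The p-values place the observed difference among relabellings of these lists, and the labels do not say whether replicates were separate cultures. Exchanging both SUDHL5 antibodies together takes their same-numbered lists as a unit, a link that the sample titles do not give.

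**Figure D2:**
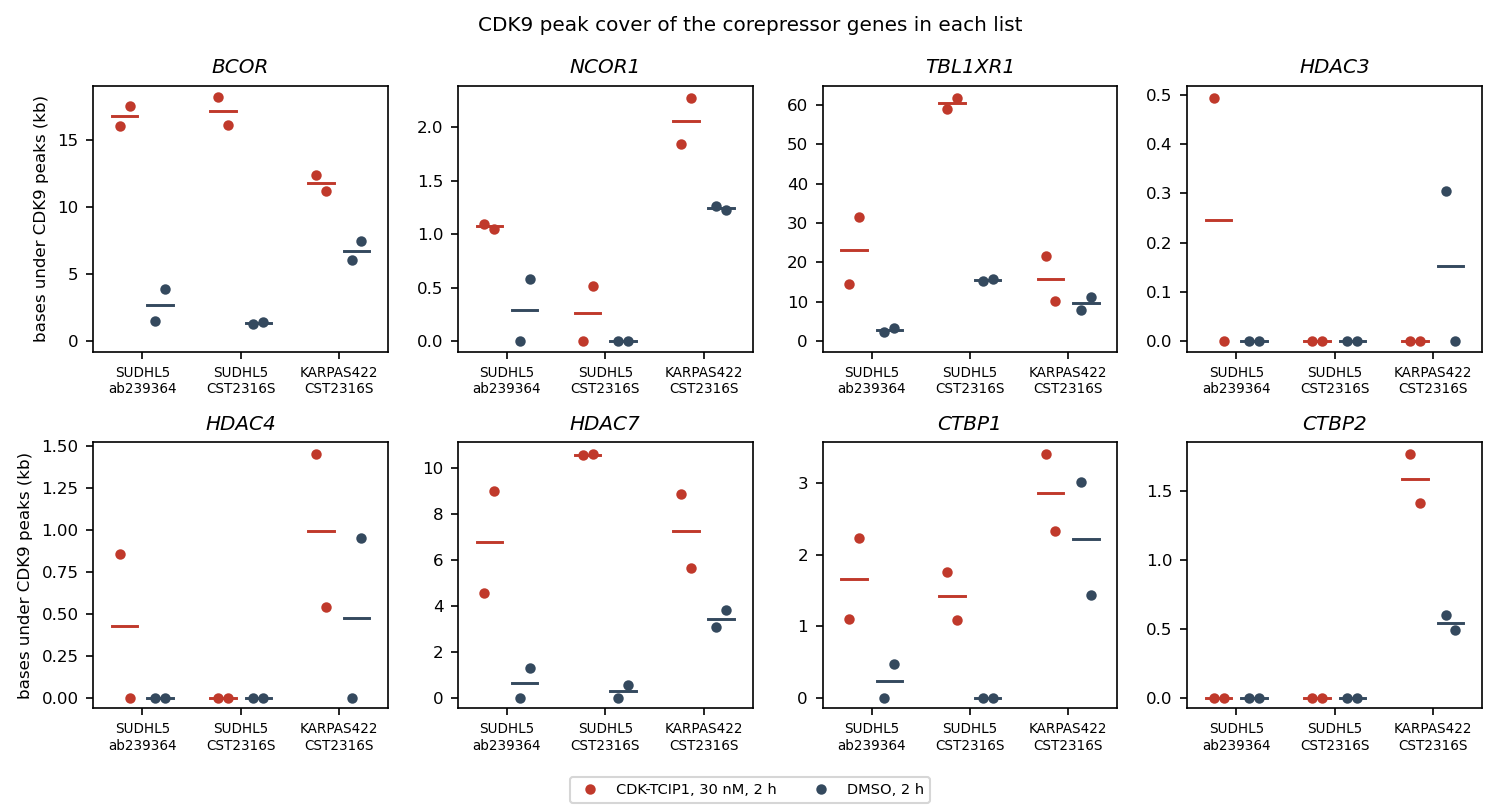
Bases under CDK9 peaks (kb, vertical axis, own scale in each panel) in the span of each gene with 1 kb either side, for each of the 12 CDK9 lists. Points are lists, bars group means, red CDK-TCIP1 and dark blue DMSO; the treated lists of BCOR and HDAC7 lie above the DMSO lists in all 3 sets, and CTBP2 has cover in KARPAS422 alone.

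TBL1XR1, on chromosome 3 at 177019344 to 177201800, encodes the adaptor of the NCOR1 complex and carried 24 of the 45 merged CDK9 sites of the 8 genes. Its cover with CST2316S in SUDHL5 was 58.9 and 61.8 kb in treated lists, against 15.3 and 15.8 kb in DMSO lists. With ab239364 it was 14.6 and 31.5 kb after treatment and 2.46 and 3.39 kb after DMSO. The treated lists lay above the DMSO lists in bases with both SUDHL5 antibodies. As a share of all covered bases of the list, TBL1XR1 took 0.381% and 0.390% in treated CST2316S lists, against 0.972% and 1.22% in DMSO lists, so the order was turned round. The shares with ab239364 were 0.186% and 0.252% after treatment and 0.430% and 0.164% after DMSO, which overlap. In KARPAS422 the cover was 21.7 and 10.2 kb in treated lists and 8.04 and 11.2 kb in DMSO lists, and the groups overlapped. TBL1XR1 was among the most covered genes of SUDHL5 under either treatment, ranking 10 and 10 of 3400 and 3314 covered genes in the treated CST2316S lists, and 3 and 2 of 705 and 567 in the DMSO lists.

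The best-ranked CDK9 peak of TBL1XR1, by the authors' q, was at the same place in all 12 CDK9 lists, with a summit 4.58 to 4.98 kb inside the outermost end and so between the starts printed above. In the CST2316S lists of SUDHL5 its fold enrichment, the authors' value over the background of the same list, was 59.4 and 93.4 after treatment and 8.86 and 14.6 after DMSO, and it ranked in the top 0.15% and 0.082% of the treated lists and the top 1.86% and 0.791% of the DMSO lists. Fold values are not scaled between lists, while ranks within a list show that the site was near the top of each. Peaks at the site covered 7.18 and 7.24 kb after treatment and 4.54 and 4.73 kb after DMSO with this antibody. The gain of TBL1XR1 at its gene end is this difference in width: the treated peaks ran to within 0.881 kb of the outermost end, so the gain was absent when the summit had to lie in the window and when windows were centred on the annotated starts.

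Deeper in TBL1XR1, 17 of the 24 sites had peaks in treated CDK9 lists and in no DMSO list, and 0 had the reverse, where 59.4% of all 25115 CDK9 sites merged over the 12 lists were in treated lists alone and 7% in DMSO lists alone. Treated lists were the longer ones, and 8 of the 24 sites had a peak in 1 CDK9 list alone. With the peaks of each set merged into regions, 3 of 19 TBL1XR1 regions (15.8%) had peaks in every treated and no DMSO list with ab239364. The same held for 8 of 24 (33.3%) with CST2316S in SUDHL5 and 3 of 15 (20%) in KARPAS422. All merged regions stood at 28.3%, 47.6% and 15.7% in that order. A site 137 to 147 kb inside the gene covered 9.71 and 8.13 kb in treated CST2316S lists of SUDHL5, against 0.46 and 1.05 kb in DMSO lists. Its fold enrichment was 95.6 and 50.3 after treatment, against 2.97 and 4.53 after DMSO, and its rank was in the top 0.28% and 0.41% of the treated lists and the top 97.1% and 32.7% of the DMSO lists. A site 53.3 to 62.0 kb inside was present in all 8 SUDHL5 CDK9 lists and in 0 of the 4 KARPAS422 lists. In KARPAS422, the sites at 137 to 147 kb and at 159 to 167 kb were present in all 4 lists. Of the 24 sites, 6 overlapped a Ser5P peak in at least 1 list, 5 a Ser2P peak and 2 a Pol II peak.

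**Figure D3:**
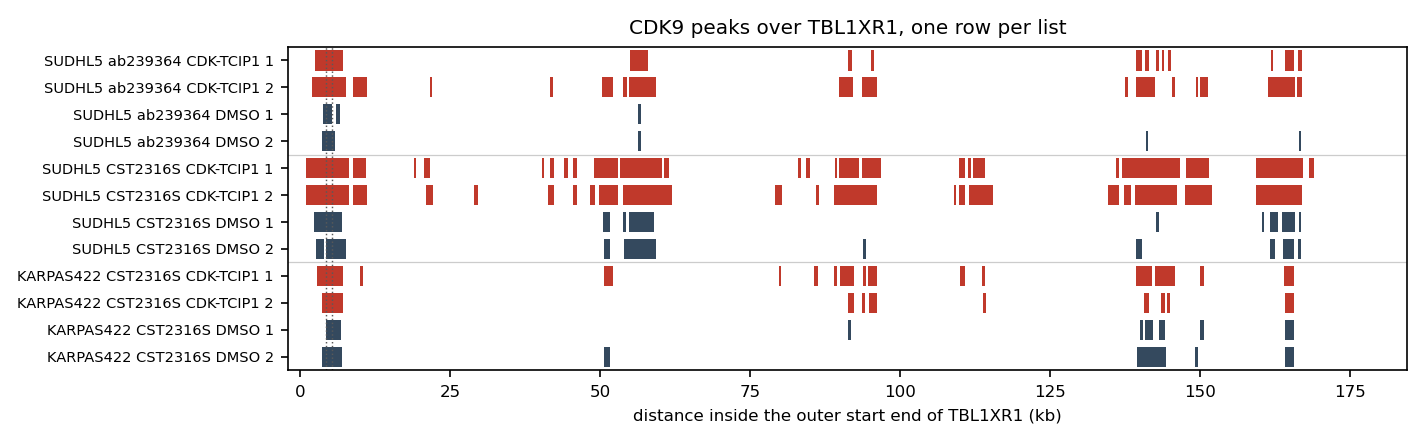
CDK9 peaks over TBL1XR1 in the 12 CDK9 lists (rows, with the replicate number; red CDK-TCIP1, dark blue DMSO) by distance inside the outermost start end (horizontal axis, kb). Dotted lines mark the 2 annotated starts at 4.32 and 5.32 kb; a peak lies there in every list, and treated SUDHL5 lists hold more and wider peaks between 41.3 and 169 kb.

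NCOR1, the scaffold of the nuclear receptor corepressor complex, lies on chromosome 17 at 16029157 to 16215534 and had CDK9 peaks at its start alone. Its cover was 1.099 and 1.05 kb in treated ab239364 lists, against 0 and 0.580 kb in DMSO lists, and 1.84 and 2.27 kb in treated KARPAS422 lists, against 1.27 and 1.23 kb in DMSO lists. Among CST2316S lists of SUDHL5, 1 treated list had a peak of 0.521 kb and the other lists had none. The NCOR1 start window shared a peak with PIGL, its neighbour, in 8 lists, so those peaks cannot be assigned to either gene. HDAC3, the catalytic deacetylase of the complex, lies on chromosome 5 at 141620881 to 141636849. It had a peak in 3 lists, a treated ab239364 list (0.493 kb), a KARPAS422 DMSO list (0.304 kb) and a treated Ser2P list (0.746 kb), and each was shared with RELL2. At HDAC3 no direction could be read, since the combined value changed sign without treated ab239364 replicate 1 (-0.22) or without KARPAS422 DMSO replicate 2 (-0.15).

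BCOR, which binds the BTB domain of BCL6 directly, lies on the X chromosome at 40051246 to 40177277 and had a CDK9 peak at its start in all 12 CDK9 lists. Its cover was 16.03 and 17.6 kb in treated ab239364 lists, against 1.498 and 3.88 kb in DMSO lists. With CST2316S in SUDHL5 it was 18.2 and 16.1 kb after treatment and 1.28 and 1.43 kb after DMSO. In KARPAS422 it was 12.4 and 11.2 kb after treatment and 6.07 and 7.46 kb after DMSO, so the groups did not overlap in any set. The start site accounted for part of this, with 8.09 and 8.05 kb in treated CST2316S lists of SUDHL5 and 1.28 and 1.43 kb in DMSO lists. As a share of the covered bases of each list, BCOR took 0.118% and 0.102% in those treated lists and 0.0818% and 0.110% in the DMSO lists, and these ranges overlapped.

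A second CDK9 cluster lay 75.9 to 81.7 kb inside BCOR, between its annotated starts and its far end. It covered 5.52 and 4.99 kb in treated CST2316S lists of SUDHL5 and had no peak in the DMSO lists, while with ab239364 it covered 4.75 and 5.48 kb after treatment and 1.13 and 1.93 kb after DMSO. In KARPAS422 its cover was 3.73 and 4.29 kb in treated lists, against 3.25 and 3.54 kb in DMSO lists. Ser5P and Ser2P peaks overlapped the cluster in all 6 lists each, DMSO lists included, and Pol II peaks in 8 of 9. Of the 7 CDK9 sites of BCOR, 3 were seen in treated lists and no DMSO list, against 59.4% of all merged sites, and 6 overlapped a Ser5P peak in at least 1 list.

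**Figure D4:**
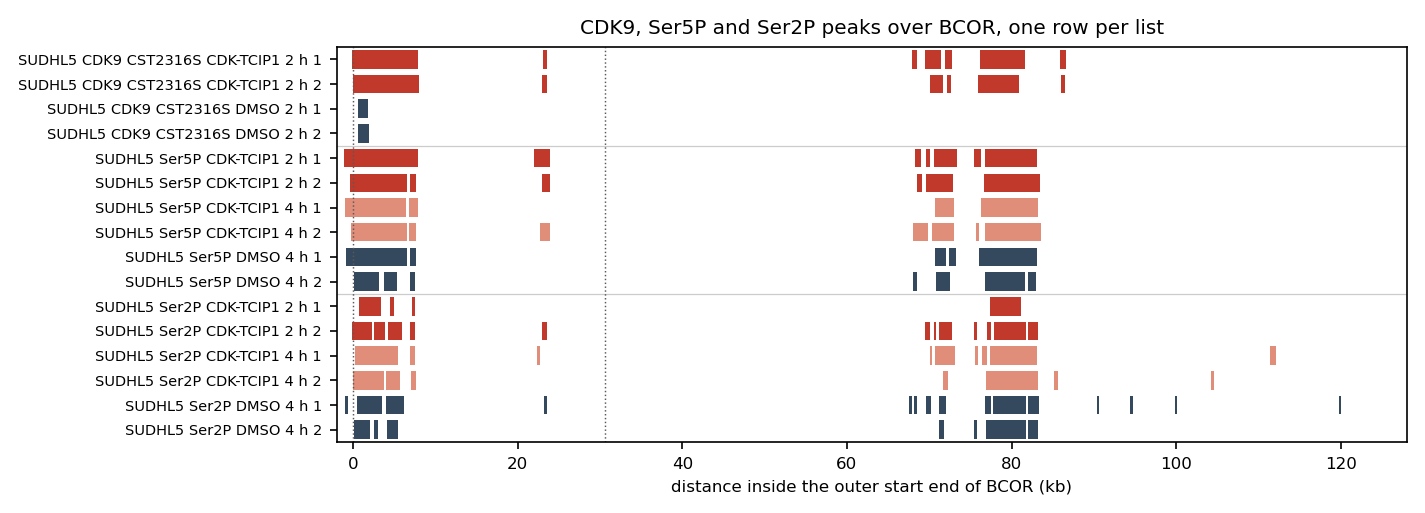
Peaks of CDK9 (antibody CST2316S), Ser5P and Ser2P over BCOR in SUDHL5 lists (rows, with the replicate number; red CDK-TCIP1 at 2 h, light red CDK-TCIP1 at 4 h, dark blue DMSO) by distance inside the start end (horizontal axis, kb). Dotted lines mark annotated starts; Ser5P and Ser2P peaks lie at the start and between 75.9 and 81.7 kb in every row, and CDK9 peaks of the same stretch in both treated rows and neither DMSO row.

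HDAC7, a class IIa deacetylase that acts in lymphocyte development, lies on chromosome 12 at 47782722 to 47821344. It had 3 CDK9 sites in the first 13.4 kb of the gene. Its cover was 4.57 and 9.01 kb in treated ab239364 lists, against 0 and 1.29 kb in DMSO lists. With CST2316S in SUDHL5 it was 10.6 and 10.6 kb after treatment and 0 and 0.553 kb after DMSO, and in KARPAS422 it was 8.90 and 5.65 kb after treatment and 3.06 and 3.81 kb after DMSO. Every treated list lay above every DMSO list of its set. The third site, 11.8 to 13.4 kb inside, had a peak in all 6 treated CDK9 lists and in 0 of the 6 DMSO lists, and overlapped Ser5P in all 6 Ser5P lists. The share of all merged sites with this order of lists was not counted, and 59.4% of the 25115 had peaks in treated lists alone.

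The best-ranked CDK9 peak of HDAC7 lay in the top 8.24% to 27.5% of the treated lists. With each list trimmed to its best-ranked peaks, as many as the shortest list of its set held, the value over the 3 sets was -0.40. Under that alternative the per-set value was -1.26 with ab239364 and -0.96 with CST2316S in SUDHL5. In both sets no HDAC7 peak of a treated list was kept, and DMSO replicate 2 kept a single peak, of 0.940 and 0.553 kb. With ab239364 the cut was at 915 peaks, and the best peak of treated replicate 2 ranked 919, so these values do not give a direction. The gene-end gain of HDAC7 with ab239364 was also absent when windows were centred on annotated starts, since a DMSO list had a peak within 1 kb of the start printed above. HDAC4, the other class IIa deacetylase among the 8 genes, lies on chromosome 2 at 239048168 to 239401649. It had little CDK9, with 0.858 and 0 kb in treated ab239364 lists and none in DMSO lists, no peak in any CST2316S list of SUDHL5, and 1.45 and 0.540 kb in treated KARPAS422 lists, against 0 and 0.950 kb in DMSO lists. HDAC4 nevertheless had a Ser2P and a Ser5P gene-end peak in every list of those marks.

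The C-terminal binding proteins bridge repressors to histone-modifying enzymes. CTBP1, on chromosome 4 at 1211445 to 1250355, had CDK9 cover of 1.098 and 2.23 kb in treated ab239364 lists, against 0 and 0.467 kb in DMSO lists. With CST2316S in SUDHL5 it had 1.76 and 1.09 kb after treatment and no peak after DMSO, and in KARPAS422 3.41 and 2.34 kb after treatment and 3.02 and 1.44 kb after DMSO, with overlap between the groups. The main site lay 1.76 to 3.81 kb inside, just within the GC-rich start printed above, and was present in 9 of the 12 CDK9 lists and in all Ser2P and Ser5P lists. With lists trimmed to equal length the combined value of CTBP1 was -0.05. CTBP2, on chromosome 10 at 124984317 to 125162463, had no peak within 1 kb of any of its 5 annotated starts and no CDK9 peak in SUDHL5. A single site 136 to 138 kb inside CTBP2 was present in all 4 KARPAS422 lists, with 1.77 and 1.42 kb after treatment and 0.599 and 0.489 kb after DMSO.

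Peaks of all lists of a set were also merged into regions. In the spans of the 8 genes, 8 of 37 regions (21.6%) were gained with ab239364, 17 of 38 (44.7%) with CST2316S in SUDHL5 and 5 of 33 (15.2%) in KARPAS422, against 28.3%, 47.6% and 15.7% of all merged regions in the same order. These shares were near the background in each set, and 0 regions of the 8 genes were lost. Over the 45 sites of all CDK9 lists merged, 24 had peaks in treated lists alone, 1 in a DMSO list alone and 20 in both, beside the 59.4% and 7% of all merged sites in treated or DMSO lists alone.

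In covered bases, the polymerase lists did not follow CDK9 in the same direction at every gene. At TBL1XR1, Ser5P cover was 9.07 and 7.15 kb at 2 h and 5.05 and 5.31 kb at 4 h of CDK-TCIP1, against 13.5 and 9.40 kb after DMSO. Ser2P cover at TBL1XR1 was 1.31 and 2.06 kb at 2 h and 3.57 and 3.40 kb at 4 h, against 3.94 and 5.02 kb after DMSO. Treated lists were thus below DMSO lists for both marks at both times at the gene that had the largest CDK9 cover of the 8 in treated CST2316S lists of SUDHL5. As a share of its list the Ser2P difference at TBL1XR1 was -0.27 at 2 h and 0.036 at 4 h on the log2 scale, against -1.33 and -0.33 in bases. CDK9 cover at TBL1XR1, as a share of the list, was also lower after treatment with CST2316S in SUDHL5 and overlapped with ab239364. The contrast between CDK9 and the polymerase marks at this gene is thus one in bases. At BCOR, Ser5P cover was 22.1 and 19.4 kb at 2 h and 17.8 and 20.4 kb at 4 h, above the 17.3 and 13.2 kb after DMSO, while Ser2P cover overlapped at both times. Within same-numbered lists, Ser2P cover at BCOR was higher in both pairs at 4 h, 16.4 against 15.5 kb and 13.9 against 10.9 kb. At 2 h it was 7.4 against 15.5 kb and 14.9 against 10.9 kb. The same-numbered pairs of all genes were not counted.

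HDAC7 had Ser2P cover of 1.57 and 4.92 kb at 2 h and 8.30 and 4.67 kb at 4 h, against 18.6 and 8.04 kb after DMSO, with no overlap at 2 h. The 2 h difference was -2.05 on the log2 scale in bases and -0.96 as a share of the list. Its Ser5P cover was 8.88 and 6.67 kb at 2 h and 6.63 and 7.18 kb at 4 h, against 11.5 and 8.05 kb after DMSO, with no overlap at 4 h. Within same-numbered lists HDAC7 was lower in both pairs for Ser2P and for Ser5P at both times. CTBP1 had Ser2P cover of 1.21 and 3.90 kb at 2 h and 2.15 and 1.91 kb at 4 h, against 11.3 and 2.20 kb after DMSO. The same-numbered pairs of CTBP1 went in opposite directions at 2 h. The first DMSO list of Ser2P was the longest of the series at 28951 peaks and held the larger HDAC7 and CTBP1 values. Exact two-sided tests of 2 lists against 2 cannot go below p = 0.333, and of 3 against 3 not below 0.1, so none was run.

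**Figure D5:**
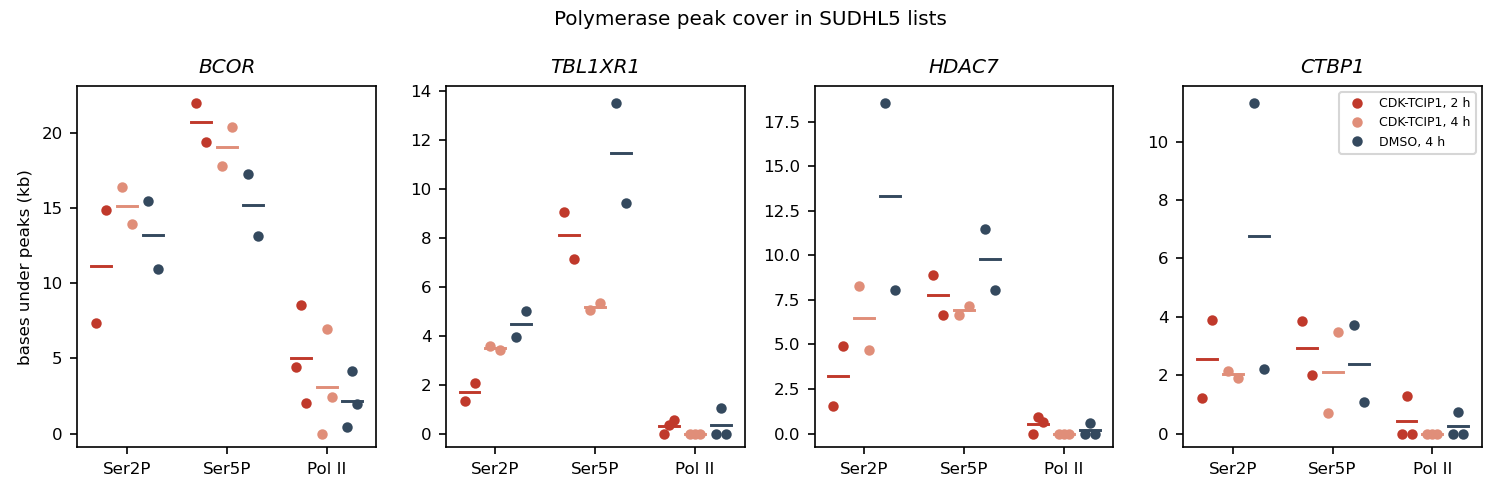
Bases under Ser2P, Ser5P and Pol II peaks (kb, vertical axis, own scale in each panel) in the span of BCOR, TBL1XR1, HDAC7 and CTBP1 with 1 kb either side in SUDHL5. Points are lists, bars group means; treated TBL1XR1 lists lie below DMSO lists for Ser2P and Ser5P at both times, and treated BCOR lists lie above them for Ser5P.

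Counted over the genes with cover, Ser2P was without overlap higher at 0 and lower at 2 of 8 genes at 2 h (TBL1XR1 and HDAC7), against 1.28% and 23.6% of all genes. At 4 h it was higher at 0 and lower at 2 of 7 (TBL1XR1 and CTBP1), against 16.1% and 17.5%. The nearest lists of CTBP1 held 2.154 kb after treatment and 2.196 kb after DMSO, and the TBL1XR1 difference changed sign as a share of the list. Ser5P was higher at 1 and lower at 1 of 6 genes at 2 h (BCOR and TBL1XR1), against 33.2% and 6.39% of all genes, and higher at 1 and lower at 2 of 6 at 4 h (BCOR, then TBL1XR1 and HDAC7), against 16.1% and 12.1%. The median log2 difference over those genes, CDK-TCIP1 minus DMSO, was -0.59 for Ser2P at 2 h and -0.32 at 4 h, where all genes stood at -0.64 and -0.06. As a share of the list it was -0.036 at 2 h and 0.036 at 4 h, so no direction of the Ser2P median at 4 h could be read, while all genes stood at -0.14 and 0.22. For Ser5P the median was -0.12 at 2 h and -0.37 at 4 h, where all genes stood at 0.37 and 0.09. In the spans of the 8 genes 6 of 74 merged Ser2P regions were lost at 2 h and 4 of 79 at 4 h, or 8.11% and 5.06%, near the 7.81% and 5.9% of all regions.

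Gene-end calls of the polymerase marks were few. Ser2P had 0 of the 8 genes gained and 0 lost at 2 h, against 0.305% and 3.18% of all genes, and 0 gained and 1 lost (CTBP1) at 4 h, against 2.93% and 1.9%. In the second DMSO list the peak behind that loss lay just past the far end of CTBP1, 39.4 to 39.9 kb from the start end of this 38.9 kb gene, and with a 2.5 kb window the gene was not called. With -log10 q of at least 5, HDAC7 was the gene lost in its place. Ser5P had CTBP1 gained at 2 h and 0 lost, against 5.07% and 0.481% of all genes, through peaks of 0.677 and 0.728 kb at the start end. The CTBP1 gain at 2 h was absent with -log10 q of at least 5. At 4 h Ser5P had 0 gained and 0 lost, against 2.59% and 0.776%. Left-out lists moved these counts to 1 or 2: without treated replicate 1, Ser2P at 2 h gained HDAC3 and Ser5P at 4 h gained CTBP1, and without treated replicate 2, Ser2P at 2 h lost HDAC7 and CTBP1. Without DMSO replicate 1, Ser2P at 4 h gained NCOR1, and without DMSO replicate 2, Ser5P lost TBL1XR1 at both times.

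Pol II peaks were sparse at these genes. At BCOR, Pol II cover was 4.44, 8.56 and 2.02 kb at 2 h and 0, 6.93 and 2.42 kb at 4 h, against 0.442, 4.14 and 1.94 kb after DMSO, and the groups overlapped at both times. Within same-numbered lists at 2 h, BCOR was higher in 3 of 3 pairs, with a mean log2 difference of 1.31, and the exact permutation of signs cannot give a p below the 0.25 found. Each 2 h list was longer than its same-numbered DMSO list, at 1214, 4000 and 2385 peaks against 710, 3229 and 2028. In the third pair BCOR cover was 2.02 against 1.94 kb, in lists that covered 1564 and 1284 kb in all. HDAC7 and NCOR1 were higher in 2 pairs and lower in 0, and CTBP1 higher in 1 and lower in 0. TBL1XR1 was higher in 1 and lower in 1, and HDAC4 higher in 1 and lower in 2. Of all genes with Pol II cover, 68.1% had a positive difference at 2 h, and their pairs were not counted. NCOR1 had 0, 0.620 and 0.629 kb at 2 h and 0, 0.476 and 0.403 kb at 4 h, against 0, 0.568 and 0.511 kb after DMSO. HDAC3 and CTBP2 had no Pol II peak in any list, and TBL1XR1, HDAC7 and CTBP1 had none in the 3 treated lists at 4 h, of which the shortest held 138 peaks. None of the 8 genes was gained or lost at its ends at 2 h, against 0.314% and 0.00924% of all genes, or at 4 h, against 0% and 0.0555%.

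A further 26 corepressor genes were read the same way: 3 of the NCoR complex, 9 of the BCOR Polycomb complex, 4 other deacetylases and 10 partners of CtBP, SIN3 and NuRD. With ab239364 in SUDHL5, 5 of the 26 were gained (19.2%), namely RING1, YAF2 and USP7 of the BCOR complex, and the deacetylases HDAC1 and HDAC2, where 14% of all genes were gained. CST2316S in SUDHL5 gained 5 of them (19.2%), namely YAF2, USP7, HDAC1, the methyltransferase gene EHMT1 and the NuRD gene MBD3, against 11.7% of all genes. RYBP alone was gained for Ser5P at 2 h, against 5.07% of all genes. The other 6 comparisons gained 0, KARPAS422 among them, and 0 of the 26 were lost in any of the 9. BCORL1, the relative of BCOR, and HDAC9 had no gene-end peak in any list.

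The pattern of gene-end peaks over the 33 lists was compared with that of every other protein-coding gene of these genes. BCOR matched 12 genes in all 33 lists, among them ASPRV1, BCL7A and C11orf54, and HDAC3 matched RELL2, with which it shares its peaks, in all 33. HDAC7 matched ZNF791 in all 33 lists and RPS27L and TAT in 32. TBL1XR1 matched 13 genes in 32 lists, ANXA9, ASB2 and BCAS1 among them. CTBP1 matched COG3 in 31 lists and 15 genes in 30, among them BRI3 and BTBD2. NCOR1 matched HSF2BP in 32 lists, and HDAC4 matched EDRF1, PLK3 and SEPHS2 in 31. The lists share cell line, antibody and length, and the likeness is a count of matching lists, where a list without a peak at either gene also counts. TBL1XR1 and HDAC3 had a gene-end peak in 3 lists each, so most of their matches were shared absences.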

How the data were processed

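Peak lists were analysed for 33 of 43 ChIP-seq samples; the 10 inputs have no list. The submitters' processing notes name MACS2, Bowtie2, Trim Galore, FastQC, Picard, SAMtools, deepTools and bedtools and the builds hg38 and dm6. Versions and the control used for each call were not given in the sources used here. Each deposited list gives the authors' ratio of signal over background (fold enrichment) and the authors' -log10 p and -log10 q, which served only to rank and filter peaks inside that list. Of 286536 peaks, 25 on unplaced contigs were not used. The lists carry no read totals, so the depth is unknown and no counting interval is given. CDK9 samples carried Drosophila chromatin, per the labels' protocols, and no value scaled to it was used.

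Genes came from a RefSeq table and promoter sequences from RefSeq, both on GRCh38 (all 8 genes matched by symbol). Gene-end calls and covered bases were computed in Python 3.11.15 with pandas 2.3.3 and NumPy 2.4.6. CDK9 cover was compared with an exact permutation test and run on all genes, with no adjusted p because none could pass 0.05. The scripts were tested on simulated data. Named genes were the 8 genes, other corepressor genes gained or lost, genes sharing a gene-end peak with them and the 3 genes most alike in pattern. The members, lists, tests and alternatives were chosen with earlier results of these data known. Alternatives were a stricter q, equal list lengths, other windows, summits, shares, another pseudocount, replicate blocks and left-out lists. A further corepressor gene is not reported here. Windows around annotated starts were added after the data were seen. Same-numbered lists did not deviate together in the CDK9 sets (correlation -0.05 to 0.01 over genes), so those comparisons were not paired. Same-numbered lists of Ser2P and Ser5P correlated at 0.11 to 0.14, and their order is given for BCOR, HDAC7 and CTBP1. In Pol II at 2 h all 3 numbers correlated, at 0.12 to 0.16, and pairs are given. In Pol II at 4 h only 1 of 3 did so above 0.1. The labels write the digits of the CST antibody in 2 orders, and the titles' form is used.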

Additional observations from a re-analysis of the deposited data

How the results depend on the processing

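No read totals were at hand, so a missing peak cannot be told from a shallow list, and treated CDK9 lists were longer than DMSO lists in every set.

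Counts of the 8 genes at gene ends moved as follows. Gains with ab239364 became 0 with equal list lengths, with summits in the window, over the gene span and at annotated starts, and stayed at 1 with the 2.5 kb window, where the gene was TBL1XR1 and not HDAC7. Gains with CST2316S in SUDHL5 became 1 with equal list lengths (TBL1XR1) and over the gene span (CTBP1) and 0 with summits, and the 2.5 kb window and annotated starts gave HDAC7 and CTBP1, while summits gave 1 loss there and for Ser5P at 4 h, BCOR in both. The Ser2P loss at 4 h became 0 with the 2.5 kb window, over the span and at annotated starts. The Ser5P gain at 2 h became 0 with -log10 q of at least 5, equal list lengths, the 2.5 kb window, the span and annotated starts. Leaving out single lists gave gains of 1 to 3 with ab239364, 2 to 3 with CST2316S in SUDHL5 and 0 to 1 in KARPAS422, for Ser2P at both times and for Ser5P at 4 h. It gave losses of 0 to 2 for Ser2P at 2 h and 0 to 1 in KARPAS422 and for Ser5P at both times.

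For CDK9 cover over 3 sets, share of the list gave -0.034 for BCOR (p = 0.833, exact permutation) and -0.62 for TBL1XR1 (p = 0.167), while the median of all genes moved by this scaling to 0.34. Equal list lengths gave -0.22 for HDAC3, -0.40 for HDAC7 and -0.051 for CTBP1. At those lengths no HDAC7 peak was kept in the treated SUDHL5 lists. Permuting both SUDHL5 antibodies separately gave exact p = 0.00926 for BCOR at 2.32 and HDAC7 at 3.14, 0.0185 for TBL1XR1 at 1.80 and CTBP1 at 1.89, and 0.0278 for NCOR1 at 1.08, but treats antibodies on the same line as independent. With the replicate block the values were the same, 3.14 for HDAC7 and 2.32 for BCOR, and no exact p could go below 0.125, so 0 genes passed. Paired numbers in Pol II at 2 h correlated at 0.12 to 0.16, and a paired difference has the same mean there. Leaving out single lists gave 2.11 to 2.53 for BCOR, 0.76 to 1.41 for NCOR1, 1.61 to 1.98 for TBL1XR1, -0.22 to 0.38 for HDAC3, 0.38 to 1.22 for HDAC4, 2.65 to 3.62 for HDAC7, 1.60 to 2.18 for CTBP1 and 0.37 to 0.47 for CTBP2.

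The median over genes with cover per CDK9 set, 2.28, 2.99 and 0.72, was 0 with equal list lengths for both SUDHL5 antibodies. As a share it was 1.03 with ab239364, 0.70 with CST2316S in SUDHL5 and 0.038 in KARPAS422, and with 1000 bases added 1.105 with ab239364 and 1.89 with CST2316S in SUDHL5. Left-out lists gave 1.41 to 3.02, 2.68 to 3.29 and 0.65 to 1.02. All genes with cover stood at 1.27, 2.13 and 0.76 in bases and at 0.90, 1.38 and 0.30 as shares, in the same order of sets. Single genes turned round as shares were BCOR (-0.38) and TBL1XR1 (-0.29) with ab239364, TBL1XR1 (-1.49) with CST2316S in SUDHL5, NCOR1 (-0.0056) in KARPAS422 and, with groups that overlap, TBL1XR1 (-0.075) and CTBP1 (-0.28) there, and TBL1XR1 for Ser2P at 4 h (0.036); with equal list lengths CTBP1 gave -0.15 in KARPAS422, and HDAC7 gave -0.96 with CST2316S in SUDHL5 and -1.26 with ab239364. As shares, the polymerase medians over genes with cover were -0.036 for Ser2P at 2 h and 0.036 at 4 h (a changed sign), -0.21 and -0.20 for Ser5P, and 0.47 and -1.32 for Pol II, against 0.22 and -0.70 in bases. All genes with cover stood, as shares, at -0.14 and 0.22 for Ser2P, 0.27 and 0.20 for Ser5P, and 0.36 and -0.18 for Pol II. In bases, all genes stood at 0.38 and -0.14 for Pol II.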
